A study of Mus musculus with 6 samples.

Results

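The genes described here are 10 growth factor and receptor genes of the EGF, HGF and KIT systems, out of 50686 genes in the deposited count table. They were taken by name: the ligand genes Egf, Hbegf, Areg, Hgf and Kitl, and the receptor tyrosine kinase genes Egfr, Erbb2, Erbb3, Met and Kit. All 10 were found by gene identifier, and 9 had enough reads to be tested, Areg being the exception. RNA was sequenced from whole lacrimal glands, the glands that secrete the watery part of tears, of mice 13 weeks old. The Eda-/- group, whose titles read Tabby, had 3 samples, and the wild-type group, whose titles read Blacky, had 3. Both groups carried the strain label C57BL/6, and no treatment is given for either. The product of Eda is ectodysplasin A, a TNF-like ligand that signals through Edar and NF-kB while hair, teeth and exocrine glands form. The labels give the mutation as a genotype of the whole animal, without the allele or the breeding, so effects in the adult gland and effects of its earlier development cannot be told apart.

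A receptor tyrosine kinase spans the cell membrane, pairs with another receptor when its ligand binds, and passes the signal through RAS, MAP kinase and PI3-kinase. EGF ligands are made as membrane proteins, are cut free by proteases, and bind Egfr, which can pair with Erbb2, a receptor with no known ligand, or with Erbb3, a neuregulin receptor with little kinase activity of its own. HGF is secreted mainly by mesenchymal cells as an inactive chain and acts, once cleaved, on Met in epithelium. KIT ligand, also called stem cell factor, is displayed on or released from stromal, endothelial and epithelial cells, and its receptor Kit marks mast cells, melanocytes and some glandular progenitor cells. EGF and HGF are both present in tears, where they act on the corneal epithelium.

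Library totals ran from 11894395 to 14480331 counts in Eda-/- and from 13670343 to 15700899 in wild-type. Eda itself had 2, 0 and 0 counts in Eda-/- libraries 1, 2 and 3, against 41, 48 and 42 in the wild-type libraries. Acinar genes were the bulk of the marker reads, with a summed level of 40100 to 41800 CPM in Eda-/- and 29000 to 30500 CPM in wild-type, where CPM is counts per 1000000 counts of the library, after TMM scaling between libraries. Most of that sum was 1 secretoglobin gene, Scgb2b24, with 37200 to 39000 CPM in Eda-/- and 25900 to 27600 CPM in wild-type. Of the 9 tested acinar genes 2 were higher and 1 was lower in edgeR, beside 6.21% and 6.9% of all tested genes. Their median log2 fold change was 0.09, and 0 were lower by DESeq2. The other marker lists summed to at most 421 CPM in any library. Salivary gland markers summed to 17.6 to 22.1 CPM in Eda-/- and 10.6 to 13.2 CPM in wild-type, with Smr3a and Dcpp3 at 0. Of the 2 tested salivary genes 1 was higher, beside 6.21% of all tested genes. Skeletal muscle markers stayed at or below 2.62 CPM. In all, 1728 of 13178 tested genes passed edgeR's quasi-likelihood test at a Benjamini-Hochberg adjusted p under 0.05, which is 13.1% of them, with 819 higher and 909 lower in Eda-/-. Scaled by library totals alone, the split was 246 higher and 4365 lower, since that scaling moved the median gene by -0.28 on the log2 scale. All changes below are relative to the median gene. The samples are bulk tissue, so fewer cells of a type and less RNA per cell cannot be told apart in any result below.

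Levels per length placed the genes over a wide range. CPM values were divided by kilobases of annotated exon and averaged over the 6 libraries with SD. Erbb3 was the most abundant at 16.2 ± 1.36 CPM per kilobase. Egf followed at 11.2 ± 0.731, Met at 8.47 ± 1.72 and Erbb2 at 5.93 ± 0.567. Egfr, the only one of the 3 ErbB receptors described here that binds EGF itself, stood lower at 1.47 ± 0.264 CPM per kilobase. Kitl lay between at 2.89 ± 0.584, and Kit and Hgf at 1.10 ± 0.371 and 0.856 ± 0.224. Hbegf was lowest of the tested genes at 0.386 ± 0.0499. In the Eda-/- libraries neighbours in this order overlapped only between Kit (0.715 to 0.872) and Hgf (0.62 to 0.738). In the wild-type libraries they overlapped only between Egfr (1.53 to 1.87) and Kit (1.30 to 1.59).

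**Figure D1:**
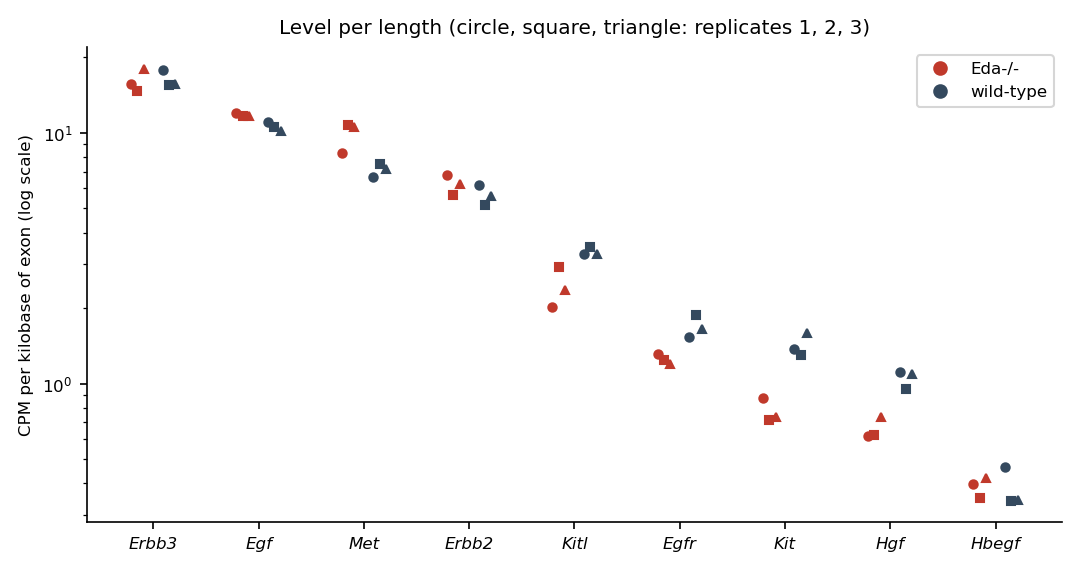
Level per length of the 9 tested genes, in CPM per kilobase of exon on a log axis, with 1 point for each of the 3 Eda-/- and 3 wild-type libraries. Erbb3, Egf, Met and Erbb2 sit above 5 CPM per kilobase in every library, and Hbegf sits below 0.5.

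Of the 9 tested genes 5 passed, 4 lower (Kit, Hgf, Kitl and Egfr) and 1 higher (Met) in Eda-/-, beside 6.9% of all tested genes that were lower and 6.21% that were higher. In 6 of the 9, those 5 and Egf, the 3 Eda-/- libraries lay all above or all below the 3 wild-type libraries. This held for 32.1% of all tested genes. The remaining 4 tested genes, Egf, Erbb2, Erbb3 and Hbegf, did not pass. The median log2 fold change of the 9 was -0.01, against 0.00 over all tested genes. Lower genes numbered 2 without Eda-/- 3 or without wild-type 2, and 1 with DESeq2.

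**Figure D2:**
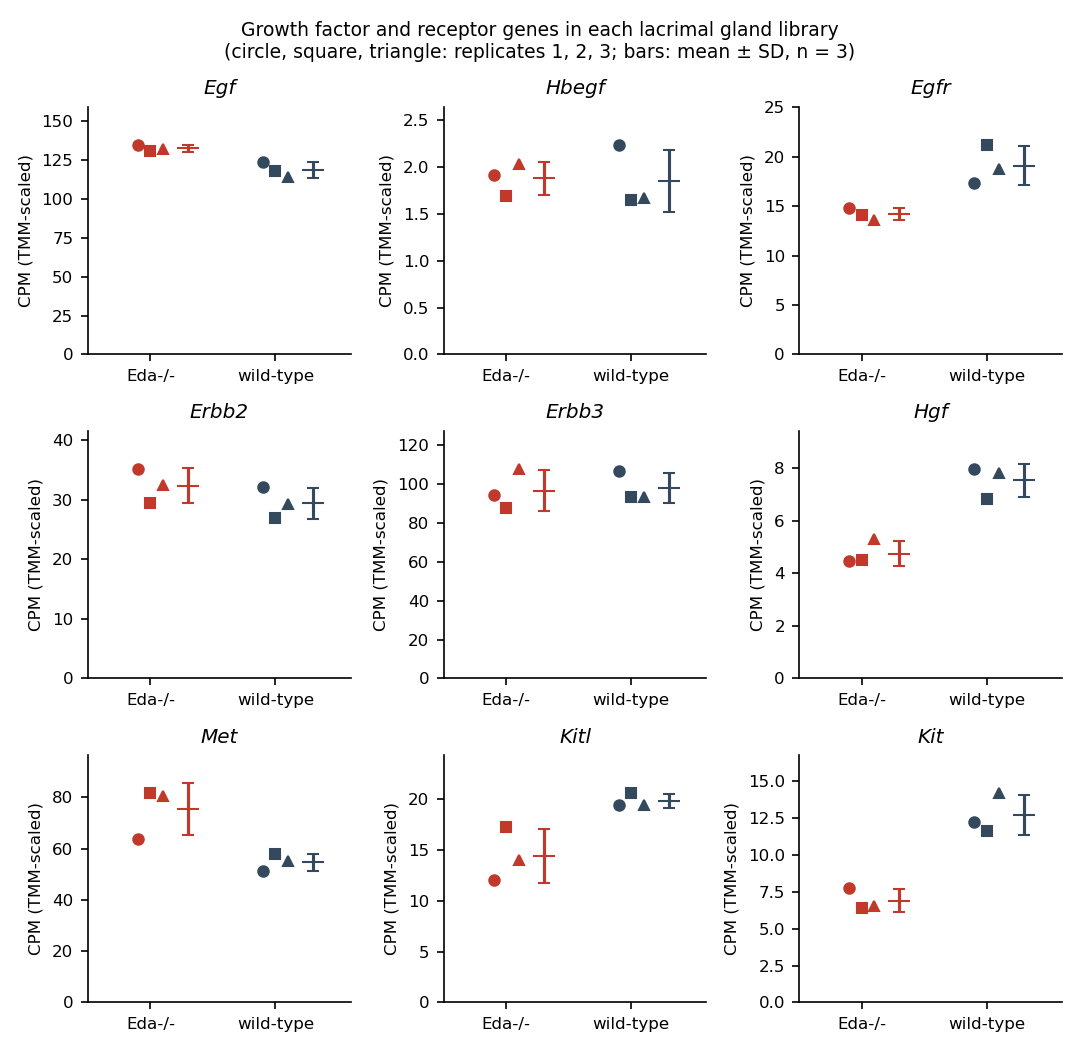
TMM-scaled CPM of the 9 tested genes in each library, from 0, with Eda-/- left and wild-type right in each panel and bars giving the mean ± SD (n = 3). The groups do not overlap for Egf, Egfr, Hgf, Met, Kitl and Kit, and overlap for Hbegf, Erbb2 and Erbb3.

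Among the EGF ligands, Egf was the abundant one and did not differ at the threshold. Egf (ENSMUSG00000028017.7, GRCm38 chromosome 3, 129677565 to 129755316, minus strand) encodes the precursor of epidermal growth factor. Eda-/- libraries 1, 2 and 3 held 135, 131 and 132 CPM, against 124, 118 and 114 CPM in the wild-type libraries. Every Eda-/- library was above every wild-type library, by a small margin. The fold change was 1.12 with a 95% interval of 1.01 to 1.23, and edgeR's adjusted p was 0.149 (unadjusted 0.0353). With library totals the log2 fold change of Egf was -0.12, so its direction depends on the scaling.

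Hbegf, encoding heparin-binding EGF-like growth factor, had 22, 18 and 26 counts in Eda-/- and 36, 28 and 26 in wild-type. Its level was 1.88 ± 0.174 CPM in Eda-/- and 1.85 ± 0.339 CPM in wild-type (SD, n = 3 each), and the groups overlapped. So few reads left the fold change of 1.02 with a 95% interval of 0.699 to 1.48 (edgeR adjusted p = 0.964), and a change within those bounds was not detectable at this depth. Areg, encoding amphiregulin, had 0 counts in each Eda-/- library and 0, 0 and 1 in wild-type. A count of 0 allows up to 0.252 CPM of the unscaled total in the shallowest Eda-/- library, from a floor of 3 counts that covers counting error only.

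Among the other EGF family genes, fixed as a list, 5 of 9 had too few reads to be tested and 0 of the 4 tested passed in edgeR. The count was also 0 by DESeq2, by limma-voom and by unadjusted p under 0.05. Nrg4, a neuregulin gene whose product binds Erbb4, was the most abundant with 51.0 CPM in Eda-/- and 52.7 CPM in wild-type (log2 fold change -0.05, edgeR adjusted p = 0.837). Erbb4, the remaining ErbB receptor gene, had 16.1 CPM in Eda-/- and 20.2 CPM in wild-type (-0.33, adjusted p = 0.229). Nrg1, whose product binds Erbb3 and Erbb4, had 5.82 CPM in Eda-/- and 6.52 CPM in wild-type (-0.17, adjusted p = 0.666).

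Egfr fell while Erbb2 and Erbb3 did not pass. Egfr (ENSMUSG00000020122.16, chromosome 11, 16752203 to 16918158, plus strand) had 170, 150 and 175 counts in Eda-/- and 278, 361 and 292 in wild-type. As scaled levels these were 14.8, 14.1 and 13.6 CPM in Eda-/-, against 17.3, 21.2 and 18.7 CPM in wild-type. The groups did not overlap, and the wild-type libraries were more spread. The fold change was 0.742 with a 95% interval of 0.638 to 0.862 (log2 -0.43, SE 0.10, edgeR adjusted p = 0.0117). The call was lost without Eda-/- 3 (adjusted p = 0.056), without wild-type 2 (0.0778) and with DESeq2 (0.0661).

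The promoter of Egfr is shown because it is the receptor of this family that changed. It spans GRCm38.p6 chr11:16751953-16752252, plus strand, and is RefSeq's sequence from 250 bases before to 50 bases after the start of the gene. Capitals mark motifs found by a search of both strands for a GC box (GGGCGG), the CCAAT box, a TATA box (TATAAA), an AP-1 site (TGANTCA), a STAT site (TTCNNNGAA) and the NF-kB consensus.
Egfr promoter: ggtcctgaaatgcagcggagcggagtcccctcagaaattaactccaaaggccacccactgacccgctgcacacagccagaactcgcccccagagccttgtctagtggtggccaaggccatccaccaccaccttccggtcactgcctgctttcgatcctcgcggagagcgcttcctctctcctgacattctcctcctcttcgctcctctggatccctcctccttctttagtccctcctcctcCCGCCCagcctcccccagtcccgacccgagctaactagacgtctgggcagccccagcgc

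The only match was a GC box on the minus strand at 9 to 4 bases before the start, without overlap. GC boxes were found in 35.9% of 27025 promoters of the same length, 1 for each gene. CCAAT boxes were in 37.9%, TATA boxes in 14.2%, STAT sites in 8.47%, NF-kB consensus matches in 8.18% and AP-1 sites in 7.93%. A match is a description of letters and not evidence of binding.

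Erbb2 (ENSMUSG00000062312.5, chromosome 11, 98412470 to 98437716, plus strand) had 35.2, 29.4 and 32.5 CPM in Eda-/- and 32.1, 26.9 and 29.2 CPM in wild-type. The groups overlapped, and the fold change of 1.10 had a 95% interval of 0.959 to 1.27 (edgeR adjusted p = 0.366). It shares 9 bases with Mien1 on the other strand. Erbb3 (ENSMUSG00000018166.8, chromosome 10, 128567523 to 128589652, minus strand) had 94.6, 87.6 and 108 CPM in Eda-/- and 107, 93.3 and 93.7 CPM in wild-type. These ranges overlapped widely. The fold change of Erbb3 was 0.99 with a 95% interval of 0.872 to 1.12 (adjusted p = 0.938). With library totals, Erbb3 passed as lower (log2 -0.29, adjusted p = 0.0149), and Erbb2 and Hbegf had log2 values of -0.14 and -0.25.

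Ratios of counts within a library do not depend on scaling between libraries, and were computed after the values above were seen, without a test. There were 0.422, 0.478 and 0.42 Egfr counts per Erbb2 count in Eda-/- libraries 1, 2 and 3, against 0.54, 0.79 and 0.642 in wild-type. Per Erbb3 count there were 0.157, 0.16 and 0.126 Egfr counts in Eda-/-, against 0.163, 0.228 and 0.2 in wild-type. Egfr was thus the smaller share beside either partner in every Eda-/- library, narrowly so beside Erbb3. Erbb2 counts per Erbb3 count were 0.372, 0.336 and 0.301 in Eda-/- and 0.301, 0.288 and 0.312 in wild-type, and overlapped.

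The ligand Hgf and its receptor Met moved in opposite directions. Hgf (ENSMUSG00000028864.7, chromosome 5, 16553495 to 16620152, plus strand) encodes hepatocyte growth factor. Its counts were 51, 48 and 68 in Eda-/- and 128, 116 and 122 in wild-type, or 4.45, 4.50 and 5.30 CPM in Eda-/- against 7.98, 6.82 and 7.83 CPM in wild-type. All 3 Eda-/- libraries were lower. The fold change was 0.633 with a 95% interval of 0.508 to 0.788 (log2 -0.66, SE 0.15, edgeR adjusted p = 0.00871). Hgf passed without any 1 library, and had an adjusted p of 0.0595 with DESeq2.

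Met (ENSMUSG00000009376.15, chromosome 6, 17463800 to 17573980, plus strand) was the only one of the 10 genes that rose, with TMM scaling. Eda-/- libraries held 63.8, 81.8 and 80.6 CPM, against 51.1, 57.8 and 55.1 CPM in wild-type. Eda-/- 1 was the lowest of its group and still above each wild-type library. The fold change was 1.38 with a 95% interval of 1.20 to 1.59 (log2 0.46, SE 0.09, edgeR adjusted p = 0.00458), and it passed without any 1 library and with DESeq2. With library totals it was 0.18 on the log2 scale and did not pass (adjusted p = 0.128).

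Met counts per Hgf count, a ratio that no scaling enters, were 14.3, 18.2 and 15.2 in Eda-/- and 6.40, 8.47 and 7.04 in wild-type. The mean was 15.9 ± 2.02 in Eda-/- and 7.30 ± 1.06 in wild-type (SD, n = 3 each). The lowest Eda-/- library was well above the highest wild-type library. Met counts per Kit count were likewise apart, with 8.21, 12.8 and 12.3 in Eda-/- and 4.18, 4.99 and 3.89 in wild-type. Per Egfr count there were 4.30, 5.82 and 5.91 Met counts in Eda-/-, against 2.95, 2.72 and 2.94 in wild-type. After scaling, every Eda-/- library was above wild-type for Met and below it for Hgf, Kit and Egfr, so these ratios had to be apart. They add no evidence on the single genes and do not show whether Met itself rose. With 3 libraries a group no exact test of a single ratio could pass 0.05, so none is given.

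**Figure D3:**
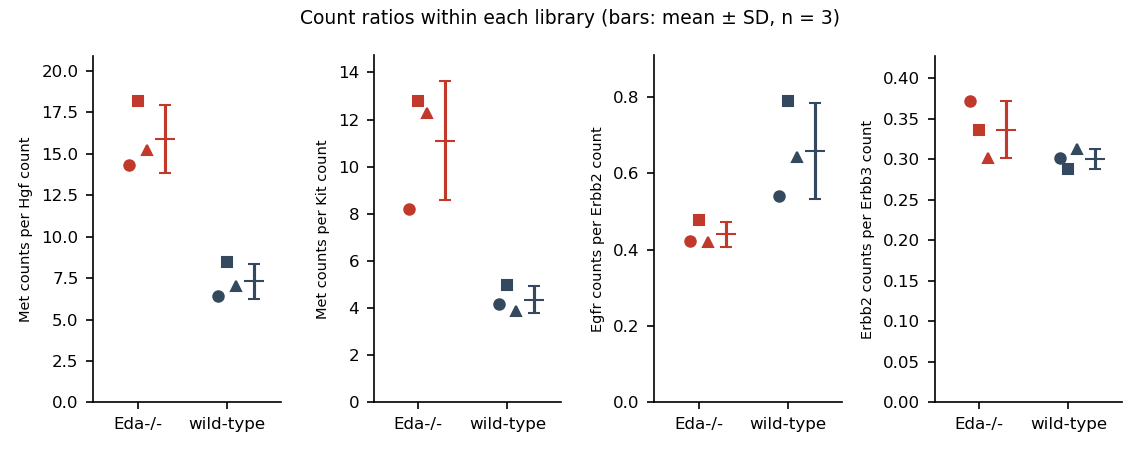
Ratios of raw counts within each library, from 0, with Eda-/- left and wild-type right and bars giving the mean ± SD (n = 3). Met per Hgf and Met per Kit are higher and Egfr per Erbb2 lower in all 3 Eda-/- libraries, while Erbb2 per Erbb3 overlaps. The Met ratios had to be apart, given the scaled levels of Met, Hgf and Kit.

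The promoters of the pair are shown because ligand and receptor changed in opposite directions. They are RefSeq sequences for GRCm38.p6 chr5:16553245-16553544 and chr6:17463707-17464006, both plus strand, at the first of 2 starts listed for Hgf and the 1 start listed for Met. Capitals mark matches to the same motifs.
Hgf promoter: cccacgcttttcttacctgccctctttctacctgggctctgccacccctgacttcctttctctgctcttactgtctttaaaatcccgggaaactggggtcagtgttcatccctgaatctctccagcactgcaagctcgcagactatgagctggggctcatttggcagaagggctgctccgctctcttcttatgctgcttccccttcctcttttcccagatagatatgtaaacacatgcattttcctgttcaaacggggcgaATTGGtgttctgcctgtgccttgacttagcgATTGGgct
Met promoter: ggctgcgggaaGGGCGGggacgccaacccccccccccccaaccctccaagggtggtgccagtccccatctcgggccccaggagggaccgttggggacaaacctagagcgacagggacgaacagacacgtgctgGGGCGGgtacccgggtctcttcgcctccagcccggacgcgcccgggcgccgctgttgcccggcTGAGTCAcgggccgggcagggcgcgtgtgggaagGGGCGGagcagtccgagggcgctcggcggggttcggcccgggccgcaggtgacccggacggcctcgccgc

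In the Hgf promoter the matches were a pair of CCAAT boxes on the minus strand, at bases 12 to 16 and 43 to 47 after the start. The Met promoter held 3 GC boxes, at 239, 117 and 20 bases before the start, and an AP-1 site at 54 bases before it, none of them overlapping. GC content was 51.3% for Hgf and 75.7% for Met, with a median of 52.7% over 27025 promoters. CpG dinucleotides numbered 7 in the Hgf promoter and 34 in that of Met, with a median of 7.

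The list of HGF activators and MET regulators held 14 tested genes of 17, of which 1 rose and 2 fell, or 21.4% beside 13.1% of all tested genes (median log2 fold change -0.24). Spint1, encoding an inhibitor of the serine proteases that activate HGF, rose to 20.8 ± 4.01 CPM in Eda-/-, against 14.7 ± 1.26 CPM in wild-type (SD, n = 3 each; log2 0.49, edgeR adjusted p = 0.0204). Plau, encoding the urokinase-type plasminogen activator, fell by 0.58 on the log2 scale, with 4.86 ± 0.138 CPM in Eda-/- and 7.29 ± 0.199 CPM in wild-type (adjusted p = 0.0126). Pdzk1ip1, encoding a small membrane protein, fell by 0.62. Without Eda-/- 1 or wild-type 2, Spint1 was not called, and without Eda-/- 2 or wild-type 3, Pdzk1ip1 was not. With library totals Spint1 was at 0.21 on the log2 scale and did not pass. With DESeq2, Plau and Pdzk1ip1 did not pass (adjusted p = 0.111 and 0.071).

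Kit and its ligand Kitl both fell. Kit (ENSMUSG00000005672.12, chromosome 5, 75574916 to 75656722, plus strand) had the largest change of the 10 genes. Its counts were 89, 68 and 84 in Eda-/- and 196, 197 and 221 in wild-type. Scaled levels were 7.77, 6.37 and 6.55 CPM in Eda-/-, against 12.2, 11.6 and 14.2 CPM in wild-type. The groups were far apart compared with the spread inside each. The fold change was 0.545 with a 95% interval of 0.45 to 0.661 (log2 -0.87, SE 0.13, edgeR adjusted p = 0.000357). Kit passed in all 17 alternative fits, with log2 values between -0.96 and -0.78 when 1 library was left out.

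Kitl (ENSMUSG00000019966.18, chromosome 10, 100015630 to 100100416, plus strand) had 137, 184 and 179 counts in Eda-/- and 311, 351 and 303 in wild-type. This gave 12.0, 17.2 and 14.0 CPM in Eda-/-, against 19.4, 20.6 and 19.4 CPM in wild-type. The wild-type libraries lay close together, and Eda-/- 2 came nearest to them. The fold change was 0.724 with a 95% interval of 0.61 to 0.858 (log2 -0.47, SE 0.12, edgeR adjusted p = 0.0153). It was not called without Eda-/- 1 (adjusted p = 0.0667), Eda-/- 3 (0.0659) or wild-type 2 (0.0746), nor with DESeq2 (0.0526). Kit counts per Kitl count were 0.65, 0.37 and 0.469 in Eda-/- and 0.63, 0.561 and 0.729 in wild-type, and overlapped.

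The promoters of Kit and Kitl are shown because ligand and receptor fell together. They are RefSeq sequences for GRCm38.p6 chr5:75574737-75575036, the first of 2 starts listed for Kit, and chr10:100015571-100015870, both plus strand.
Kit promoter: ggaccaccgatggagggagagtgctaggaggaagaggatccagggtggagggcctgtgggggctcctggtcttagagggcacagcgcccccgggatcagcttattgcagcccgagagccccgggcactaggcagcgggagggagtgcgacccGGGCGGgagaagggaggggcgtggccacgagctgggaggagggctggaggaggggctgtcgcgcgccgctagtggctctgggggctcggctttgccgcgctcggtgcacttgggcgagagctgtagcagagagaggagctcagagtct
Kitl promoter: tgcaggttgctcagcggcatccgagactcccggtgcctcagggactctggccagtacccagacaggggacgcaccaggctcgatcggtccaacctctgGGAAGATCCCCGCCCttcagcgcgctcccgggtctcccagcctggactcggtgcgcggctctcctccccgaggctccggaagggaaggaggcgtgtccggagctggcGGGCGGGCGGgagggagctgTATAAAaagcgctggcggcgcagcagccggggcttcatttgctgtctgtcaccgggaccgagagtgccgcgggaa

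In the Kit promoter 1 GC box was found, at 98 to 93 bases before the start. That of Kitl held an NF-kB consensus match on the minus strand at 152 to 143 bases before the start, which overlaps a GC box by 1 base, a pair of overlapping GC boxes between 45 and 36 bases before it, and a TATA box at 25 bases before it. Kitl was the only one of the 8 genes with a searched promoter whose window held the NF-kB consensus, beside 8.18% of 27025 promoters. The other 7 were Egf, Egfr, Erbb2, Areg, Hgf, Met and Kit.

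**Figure D4:**
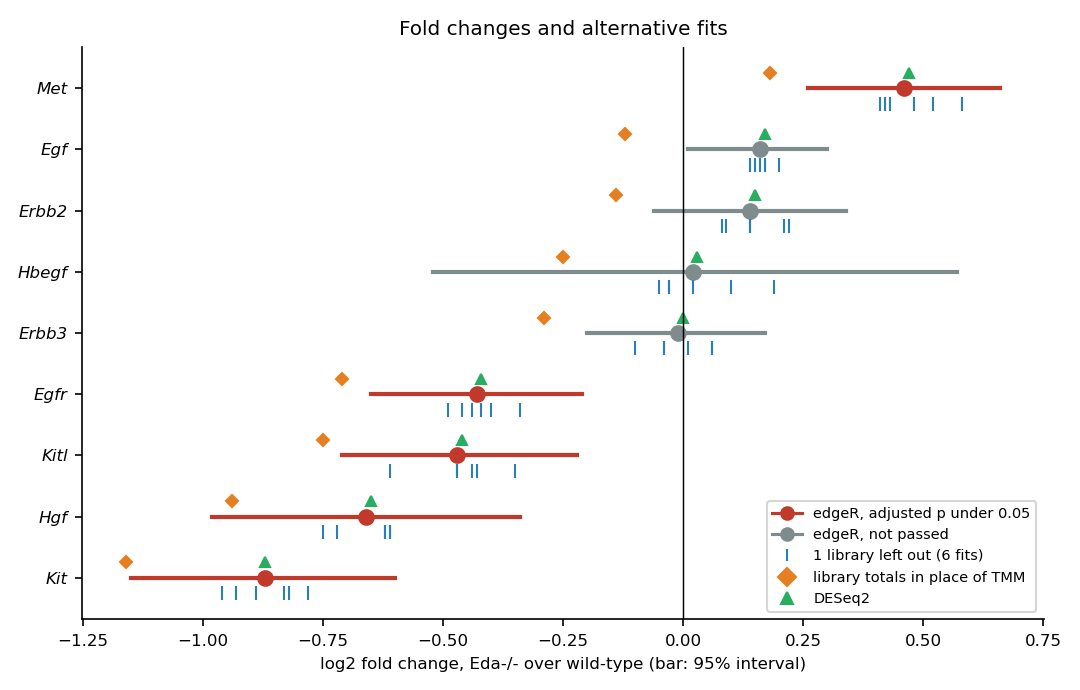
Log2 fold change of Eda-/- over wild-type for the 9 tested genes (circles, with 95% intervals), with the value after each library was left out (ticks), with library totals (diamonds) and with DESeq2 (triangles). Kit, Hgf, Kitl and Egfr stay below 0 and Met above 0 in all of these, and library totals place Egf, Erbb2 and Hbegf below 0.

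Markers of the cell types in which these genes are known to be active are given beside them, and a shared cause was not tested. Mast cell markers were near 0: the 10 together had 15 to 48 counts in Eda-/- libraries and 28 to 48 in wild-type, none with more than 13 in a library, and none was tested. The melanocyte genes Dct, Tyr, Tyrp1, Mlana and Slc45a2 had at most 1 count in any library, Oca2 at most 3 and Pmel 3 to 11. Mitf, which other cells also express, held most of the melanocyte list, whose 8 genes summed to 11.4 to 13.0 CPM in Eda-/- and 10.2 to 11.8 CPM in wild-type. Kit had 68 to 89 counts in Eda-/- and 196 to 221 in wild-type, more than all 10 mast cell markers together in each library. Which cells the Kit reads came from was not tested.

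Duct markers summed to 343 to 403 CPM in Eda-/- and 383 to 421 CPM in wild-type, with 1 of 8 tested genes lower and 0 higher, where 6.9% of all tested genes were lower (edgeR, with 0 higher also by DESeq2, limma-voom and unadjusted p under 0.05). Myoepithelial and basal markers summed to 108 to 125 CPM in Eda-/- and 144 to 189 CPM in wild-type, with 4 of 9 lower. Per 1000 duct marker counts there were 19.3, 18.6 and 18.5 Kit counts in Eda-/-, against 29.5, 30.3 and 33.7 in wild-type. The highest duct gene reached 3270 counts in a library, where list sums were at most 6636, so ratios to this list can lean on 1 gene. Per 1000 myoepithelial and basal marker counts there were 63.9, 50.9 and 60.8 Kit counts in Eda-/-, against 85.0, 76.7 and 74.9 in wild-type. Kit was lower relative to both lists without overlap. For Met, counts per 1000 duct marker counts were 158, 238 and 228 in Eda-/- and 123, 151 and 131 in wild-type, and the groups were apart.

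Fibroblast markers summed to 167 to 190 CPM in Eda-/- and 208 to 269 CPM in wild-type, with 3 of 10 lower, beside 6.9% of all tested genes. Macrophage markers summed to 29.1 to 36.3 CPM in Eda-/- and 61.4 to 117 CPM in wild-type, with 6 of 10 lower, beside the same 6.9%. Hgf counts per 1000 fibroblast marker counts were 25.8, 23.6 and 31.8 in Eda-/- and 35.8, 32.7 and 29.1 in wild-type, so the groups overlapped. Egfr and Kitl overlapped too: per 1000 fibroblast marker counts Egfr had 86.2, 73.9 and 81.9 in Eda-/- and 77.7, 102 and 69.7 in wild-type. For Kitl the values were 69.4, 90.6 and 83.8 in Eda-/- and 86.9, 99.0 and 72.3 in wild-type. Hgf, Egfr and Kitl were lower relative to the median gene, and their groups overlapped relative to these fibroblast genes. Whether they fell together with the fibroblast markers was not tested. The highest fibroblast gene reached 1452 counts in a library, where list sums were at most 4192, so these ratios too can lean on 1 gene. Endothelial markers summed to 50.9 to 54.7 CPM in Eda-/- and 58.3 to 72.9 CPM in wild-type. Of these 2 of 9 were lower and 1 was higher, beside 6.9% and 6.21% of all tested genes. Kitl relative to the endothelial markers overlapped between groups. Of the remaining lists, Schwann cell markers summed to 14.9 to 18.1 CPM in Eda-/- and 18.3 to 22.1 CPM in wild-type. Lymphocyte and plasma cell markers summed to 22.2 to 51.9 CPM in Eda-/- and 6.74 to 29.2 CPM in wild-type, which overlap. Nearly all of that was Jchain, the 1 tested gene of the list, which did not pass in edgeR (log2 fold change 1.5). By limma-voom 1 gene of the list was higher, and by DESeq2 0, beside 6.21% of all tested genes in edgeR. Adipocyte markers summed to 11.8 to 14.4 CPM in Eda-/- and 8.99 to 9.76 CPM in wild-type. Of the 4 tested adipocyte genes 2 were higher, or 1 by DESeq2 and 1 by limma-voom, beside 6.21% of all tested genes.

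Genes that act on these receptors changed in both directions. Of 20 tested genes in the list of ErbB inhibitors and receptor turnover 2 rose and 4 fell, or 30.0% beside 13.1% of all tested genes (median log2 fold change -0.01). Lrig1, a membrane protein that promotes breakdown of ErbB receptors and Met, rose to 21.8, 23.1 and 26.4 CPM in Eda-/-, against 13.1, 12.0 and 9.50 CPM in wild-type. All 3 Eda-/- libraries lay above the wild-type ones. Lrig1 had the largest rise of the list (log2 1.05, SE 0.12, edgeR adjusted p = 2.82e-05), and passed in every alternative fit. Rnf41, encoding the ubiquitin ligase Nrdp1 that acts on Erbb3, rose by 0.51 on the log2 scale (adjusted p = 0.0228).

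Errfi1, an inhibitor of EGFR kinase that is induced by its signalling, fell by 0.41, with 11.7 ± 0.424 CPM in Eda-/- and 15.5 ± 1.58 CPM in wild-type (edgeR adjusted p = 0.0222). Ptpn1, a phosphatase of receptor tyrosine kinases, fell by 0.45 (adjusted p = 0.00227). The ubiquitin ligase gene Cblc fell by 0.48 and the endocytic adaptor gene Eps15 by 0.36. Ptpn1 passed without any 1 library. The other calls depended on single libraries: Rnf41 was lost without Eda-/- 2, Eda-/- 3 or wild-type 1, Errfi1 without Eda-/- 1, Eda-/- 3, wild-type 2 or wild-type 3, Eps15 without Eda-/- 2 or wild-type 1, and Cblc without any 1 library except Eda-/- 1. With library totals Rnf41 was at 0.22 and did not pass. In DESeq2 the adjusted p was 0.107 for Rnf41, 0.135 for Errfi1, 0.229 for Cblc and 0.093 for Eps15. The list's lower genes numbered 2 without any 1 library other than Eda-/- 1, and its higher genes 1 without Eda-/- 2, Eda-/- 3 or wild-type 1.

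Of 10 tested genes for the release of EGF ligands 3 fell and 0 rose in edgeR, or 30.0% beside 13.1% of all tested genes (median -0.30), and 0 rose by DESeq2, by limma-voom or by unadjusted p under 0.05. Rhbdf1, which encodes iRhom1, a partner of the sheddase Adam17, fell by 0.47 on the log2 scale (edgeR adjusted p = 0.0096). The rhomboid protease gene Rhbdl2 fell to 1.14, 1.59 and 0.936 CPM in Eda-/-, against 3.18, 2.94 and 4.17 CPM in wild-type (log2 -1.50, SE 0.27, adjusted p = 0.00168). Furin, a protease of the secretory pathway, fell by 0.38 (adjusted p = 0.0153). The 6 tested sheddase genes had an edgeR adjusted p of 0.0721 or more. Log2 values were 0.03 for Adam10, 0.02 for Adam17 and -0.01 for Adam9, and lower at -0.23 for Adam15, -0.68 for Adam19 and -1.26 for Adam8. Of these, Adam8 and Adam15 had an unadjusted p under 0.05 (0.0113 and 0.0436). Furin was lost without Eda-/- 2, Eda-/- 3 or wild-type 2, and Rhbdf1 had an adjusted p of 0.0526 with DESeq2.

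Few genes of the relay from receptor to nucleus passed. Of 32 tested genes of the RAS, MAP kinase, PI3-kinase and STAT relay 1 passed, or 3.12% beside 13.1% of all tested genes (median 0.05). The count of lower relay genes was 0 without Eda-/- 3 and with DESeq2, and 2 without wild-type 1 and at an unadjusted p under 0.05. With library totals 15 of the 32 relay genes were lower, beside 4365 of all 13178 tested genes. The list's median was then -0.23, near the shift of the median gene. No relay gene rose in edgeR, 2 did at an unadjusted p under 0.05, and 0 in DESeq2 and limma-voom. Of 14 tested adaptors and phosphatases of KIT and MET signalling 1 rose and 2 fell, or 21.4% beside 13.1% of all tested genes (median -0.25). Gab2, a docking protein, rose by 0.57 on the log2 scale, and was lost without Eda-/- 3 or wild-type 2, with DESeq2 (adjusted p = 0.0687) and with library totals (log2 0.28). The leukocyte genes Inpp5d, a lipid phosphatase, and Dok2, an adaptor, fell by 1.03 and 1.16, beside the lower macrophage markers given above; their part in these 2 results was not tested. Among the fits with 1 library left out, Dok2 passed only in the one without wild-type 1, where 4 adaptor genes were lower. Inpp5d passed in all 6 of them.

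Of 18 tested ERK response genes 2 fell and 0 rose in edgeR, or 11.1% beside 13.1% of all tested genes (median -0.25), and 0 rose by DESeq2, by limma-voom or by unadjusted p under 0.05. The cyclin gene Ccnd1 fell to 36.9 ± 7.14 CPM in Eda-/-, against 66.2 ± 8.72 CPM in wild-type (SD, n = 3 each; log2 -0.84, edgeR adjusted p = 0.0099). Junb, an AP-1 subunit, fell by 0.42 (adjusted p = 0.0355), and was lost when any 1 library except wild-type 2 was left out and with DESeq2 (0.1). The feedback genes Dusp6 (-0.19), Spry2 (0.11) and Etv5 (-0.38) did not pass. Of the 18 tested genes 17 had a log2 fold change below 0, beside 6526 of 13178 over all tested genes. Values in the list ran from -1.48 to 0.11.

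Other receptor tyrosine kinase genes, like Kit and Egfr, included many that were lower. Of 35 tested 13 fell, or 37.1% beside 6.9% of all tested genes, with a median of -0.38. None rose in edgeR, 2 did at an unadjusted p under 0.05, and 0 in DESeq2 and limma-voom. The 5 with the smallest p were the neurotrophin receptor gene Ntrk3 (-0.92), the ephrin receptor genes Ephb6 (-0.56) and Epha7 (-1.20), Csf1r (-1.01), the macrophage growth factor receptor, and Pdgfra (-0.52), a PDGF receptor gene that is active in fibroblasts. All 5 passed without any 1 library. The receptors Insr and Igf1r, with 101 and 63.3 CPM in Eda-/- and 91.9 and 58.0 CPM in wild-type, did not pass. Lower genes of the list numbered 8 without Eda-/- 1 and 9 with DESeq2. Csf1r and Pdgfra are also on the macrophage and fibroblast lists, whose summed levels were lower in Eda-/- as given above.

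**Figure D5:**
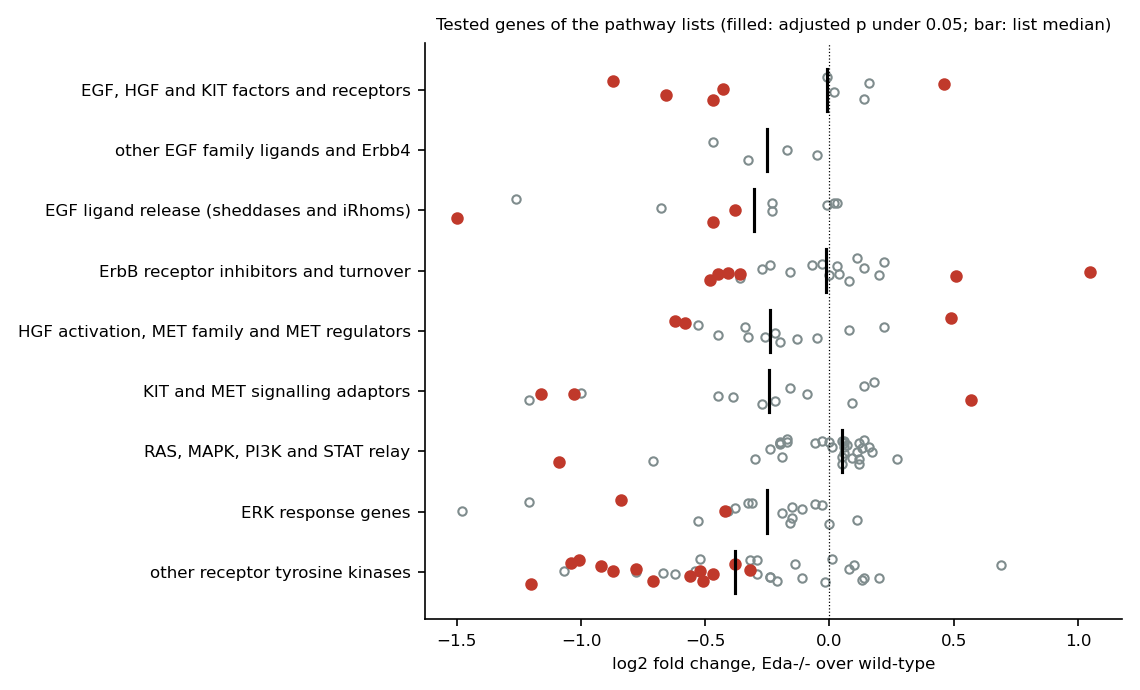
Log2 fold change of Eda-/- over wild-type for each tested gene of the 10 growth factor and receptor genes and of the 8 pathway lists, with filled points for an adjusted p under 0.05 and a bar at each median. The relay genes lie close to 0 with a median of 0.05 (-0.23 with library totals), and the other receptor tyrosine kinases lie lower with a median of -0.38.

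Gene neighbourhoods and read assignment were examined for the 10 genes. Within 1 Mb on either side, 24 of 172 tested neighbours passed, or 14.0% beside 13.1% of all tested genes, counted over the 10 genes together. Met had 1 of 8 neighbours that passed in edgeR, Egfr 1 of 6, Kit 2 of 14 and Erbb3 10 of 45. Rnf41 lies within that distance of Erbb3, and Pdgfra within that distance of Kit. Of 31-base words in the annotated transcripts, 0% occurred in another gene for Met, Kit, Kitl, Erbb2, Erbb3, Hbegf and Areg, 1.01% for Egfr, 6.31% for Hgf and 9.58% for Egf. The strand setting of the counting is not stated, so reads of overlapping genes on the other strand cannot be told apart. Genes that overlap Egf, Egfr, Erbb3 or Hgf had at most 7 counts in any library, and Mien1, which shares 9 bases with Erbb2, had 408 to 587.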

How the data were processed

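Total RNA of 6 lacrimal glands was sequenced after removal of ribosomal RNA, with a directional kit, per the labels' protocols. The authors deposited unscaled read counts per gene as whole numbers, 1 column for each sample and replicates not pooled. GRCm38.p5, bcl2fastq, Trimmomatic, STAR, featureCounts and DESeq2 are named as build and tools per the submitters' processing notes. The sources used here give no versions, annotation release, strand setting or filters. Samples were grouped by genotype label and numbered as in their titles. The series' design text calls the replicates biological, and 0 columns were unmatched. Of 50686 identifiers 50462 matched GENCODE M21 (GRCm38), which gave symbols, coordinates and exon lengths.

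All genes were tested together with edgeR 4.0.16 in R 4.3.3. Filtering was by filterByExpr (minimum count 10), which left 13178 genes and at least 99.7% of each library's counts. Scaling was by TMM (factors of 0.887 to 0.937 in Eda-/- and 1.079 to 1.143 in wild-type). Robust quasi-likelihood fits had genotype alone, with two-sided tests and Benjamini-Hochberg adjustment over all tested genes. Each SE was derived as the size of the log2 fold change over the square root of F, and 95% intervals use the fit's degrees of freedom. These intervals include the spread between replicates. Library depth limits low genes most, and the floor for a count of 0 covers counting error only. Replicate libraries differed by more than sampling noise (chi-square per degree of freedom 9.16 to 29). The fit was tested on simulated counts first.

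The 10 genes and all gene lists were chosen with earlier results of these data known, so their counts are descriptions, to be read beside the 13.1% of all tested genes that passed. There were 8 pathway lists, in which every passing gene was named up to 5 in each direction by p, or the 3 most abundant where none passed. A further 13 lists of cell type markers are given by summed level. The Adam genes, Dusp6, Spry2, Etv5, Insr and Igf1r, the melanocyte genes and the ratios were chosen with their values in view, and some genes that the rule names are not reported here. The 17 alternative fits were DESeq2 1.42.0, limma-voom (limma 3.58.1), DESeq2 size factors, library totals, upper quartile scaling, 2 other filters (1 count in all, or 1 CPM in 3 libraries), removal of the 20 most abundant genes, a correction for GC content and exon length (known for 99.8% of tested genes), a fit that was not robust, a replicate block and each of 6 libraries left out. Motifs were searched in the first listed promoter of each gene, 250 bases before to 50 after the start, from RefSeq (GRCm38.p6). This covered 8 of the 10 genes, without Erbb3 and Hbegf. Any of the 10 genes on chromosome 18, where Hbegf lies, was left out of the search.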

Additional observations from a re-analysis of the deposited data

How the results depend on the processing

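Kit, Hgf, Kitl and Egfr kept a lower value and Met a higher one in all 17 alternative fits. With library totals in place of TMM 246 genes were higher and 4365 lower, 0 of the 10 growth factor and receptor genes were higher, and Egf, Erbb2 and Hbegf had reversed log2 values of -0.12, -0.14 and -0.25; every value moved down because that scaling moves the median gene by -0.28. With DESeq2 595 genes were lower in all, and 1 of the 10 genes, Kit, was lower; the cause was not tested. Hbegf was at -0.01 with upper quartile scaling. When 1 library was left out, 561 to 677 genes were higher and 599 to 834 lower, 1 of the 10 genes was higher and 2 to 4 were lower. Erbb3 then ranged from -0.10 to 0.06 and Hbegf from -0.05 to 0.19, changing sign near 0. Of 31 passing genes of the pathway lists 10 passed in every alternative and none reversed.

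Replicate numbers did not pair the libraries: same-numbered libraries had correlations of deviations from their group means of -0.035, 0.021 and -0.094. With replicate number as a block 712 genes were higher and 896 lower, and 1 of the 10 genes was higher and 4 were lower, the same calls. Depth limits Hbegf and Areg, whose counts were at most 36 and 1 in a library.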
